A study of Homo sapiens with 24 samples.

Results

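HLE is an established human liver cancer line, and its 4 libraries are 4 of the 24 polyadenylated RNA libraries of this study. They were chosen by their cell line label alone. The series holds 6 liver cancer lines, HLE beside SK-HEP1, HepG2, Huh7, Huh1 and Hep3b, each with the same 4 conditions and 1 library per condition. In HLE these are a control siRNA (siCTL), siCTL with TGF-beta, an siRNA against SFPQ (siSFPQ), and siSFPQ with TGF-beta, with TGF-beta given at 2 ng/ml for 24 hours to cells kept in DMEM with serum. The labels name no second siRNA, no rescue and no separate cultures, so effects of losing SFPQ and other effects of that siRNA cannot be told apart. Knockdown was read as siSFPQ minus siCTL in 2 pairs (without and with TGF-beta), and the TGF-beta response as treated minus untreated in 2 pairs (siCTL and siSFPQ). The same 4 libraries make both changes. A p-value sets a change against how far the 2 pairs differ, mostly as pooled over genes, and not against the spread between separate cultures. That difference between the pairs is also the extra TGF-beta response under siSFPQ described below, which the tests count as noise.

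SFPQ is a nuclear RNA-binding protein of the DBHS family, with NONO and PSPC1, and a core protein of paraspeckles, the nuclear bodies built on the long noncoding RNA NEAT1. It acts in transcription, in splicing and in the production of RNA from very long genes. TGF-beta binds a pair of receptor kinases that phosphorylate SMAD2 and SMAD3, which join SMAD4 and turn on genes of the matrix and of the pathway's own inhibitors. In liver cancer the pathway can hold back growth and can also drive a mesenchymal state. The title of the series concerns SMAD4 held in SFPQ condensates, so the question behind the design is how the TGF-beta response changes when SFPQ is lowered.

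Values are FPKM, fragments scaled to transcript length and to the mapped total of the library, and a change is a difference in log2(FPKM + 1), which understates the change of low genes. Tests covered the 11986 genes that reached 1 FPKM in 2 or more HLE libraries. In each gene list described here, at most 3 genes passed that filter through the libraries of 1 siRNA or 1 TGF-beta state alone. HLE cells carried high VIM, vimentin, and few hepatocyte markers. The 6 mesenchymal markers summed to 4699, 5597, 4971 and 8406 FPKM in siCTL, siCTL with TGF-beta, siSFPQ and siSFPQ with TGF-beta, against 715 to 2535 in the siCTL libraries of the other 5 lines. VIM made up most of that sum, with 4266 FPKM in siCTL, while CDH2, N-cadherin, at 11.9 and FN1, fibronectin, at 186 lay below the other lines' medians of 28.0 and 823. Of 14 hepatocyte markers, 7 reached 1 FPKM in any HLE library and 1 was at 0 in all 4, and their sum was 29.2, 39.7, 50.01 and 119 FPKM in the same order, against 22.6 to 16496 in the other lines. The defining regulator HNF4A stayed between 0.131 and 0.644 FPKM and the epithelial cadherin CDH1 between 0.0666 and 0.147, while ALB, serum albumin, lay between 0.663 and 2.35. The other epithelial markers were not all low: with KRT8 at 916 and KRT18 at 937 FPKM in siCTL, the 5 epithelial markers summed to 2003, 2173, 3872 and 3233, against 1607 to 3498 in the other lines. For other cell types, the 10 endothelial markers summed to at most 11.0 FPKM (1.03 to 19.8 in the other lines' siCTL libraries), with 1 of them at 1 FPKM or more. The 12 stellate and fibroblast markers summed to 68.3 to 94.5 (41.6 to 162 in the other lines), led by THY1 at 31.2 to 57.8, which was at most 22.7 in the other lines. The 12 immune markers summed to 40.5 to 92.6 (18.9 to 779.7), with 4 at 0 throughout and CD68, a lysosomal protein, at 35.9 to 80.5. Read steps in the low values put the depth of the other HLE libraries at 1.06 (siCTL with TGF-beta), 0.784 (siSFPQ) and 0.63 (siSFPQ with TGF-beta) of that of siCTL.

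The siRNA lowered its target. SFPQ stood at 247 FPKM in siCTL and 248 with TGF-beta, against 23.5 in siSFPQ and 26.5 in siSFPQ with TGF-beta. Without TGF-beta 9.49% of the control level was left, and with it 10.7%, which is the lowest share of the 6 lines (13.1% in SK-HEP1, 24.2% in Hep3b, 26.0% in Huh7, 40.4% in Huh1 and 45.2% in HepG2 without TGF-beta). NONO, the usual dimer partner, was measured at 295, 299, 336 and 313 FPKM in the 4 libraries, a change of 0.13 (SE 0.15) that did not pass the test (adjusted p = 0.52, limma with Benjamini-Hochberg adjustment). PSPC1, the third DBHS protein, was close to absent from this line: it read 0.123, 0.257, 0.144 and 0.346 FPKM, against 27.8 to 95.4 in the siCTL libraries of the other 5. NEAT1 rose with knockdown, from 243 and 137 FPKM to 422 and 322, a change of 1.01 (SE 0.16). Among 17 tested paraspeckle genes 5 rose and 7 fell, beside 15% and 29.9% of all tested genes, and the falls included 2 RNA-binding proteins of the FET family. TAF15 went from 144 and 149 FPKM to 56.9 and 42.4, and EWSR1 from 198 and 198 to 86.0 and 75.2.

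Knockdown moved a large part of the measured transcriptome in HLE, and the falls outnumbered the rises. At an adjusted p under 0.05, 1793 genes (15% of those tested) rose and 3584 (29.9%) fell. In both pairs 137 genes (1.14%) were at least 2-fold higher and 838 (6.99%) at least 2-fold lower. The median gene changed by -0.10, and scaling each library to a common median ratio moved that median to 0.01 and gave 2605 calls higher and 2852 lower, against 1793 and 3584 without it. The 2 pairs had the same sign in 81.0% of genes. When the TGF-beta state was left out of the model as a block, 2938 genes were called. In bulk RNA, fewer cells of a kind and less RNA per cell cannot be told apart.

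**Figure D1:**
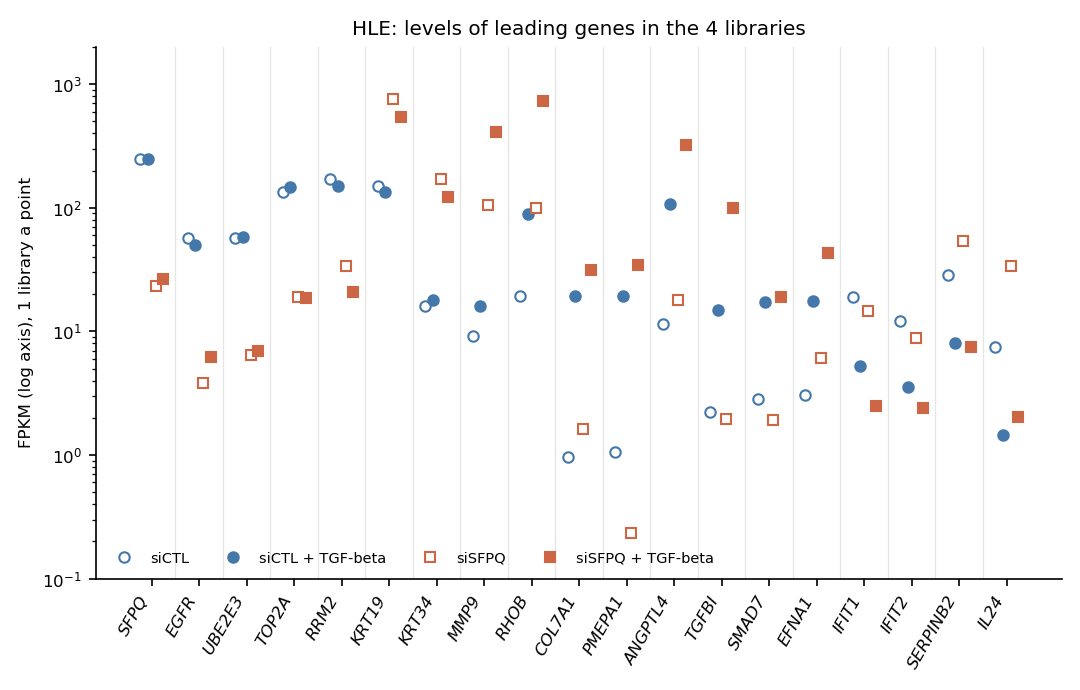
FPKM on a log axis of 19 genes in the 4 HLE libraries, 1 point per library: blue circles are siCTL, orange squares siSFPQ, and filled symbols carry TGF-beta. SFPQ to RRM2 sit lower in both siSFPQ libraries, KRT19 to RHOB higher in both, COL7A1 to EFNA1 higher in both TGF-beta libraries than in their untreated partners and IFIT1 to IL24 lower.

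The largest falls after SFPQ itself came in genes of varied roles. FAF1, an adaptor for ubiquitinated proteins, went from 28.98 and 30.7 FPKM in the siCTL libraries to 2.31 and 2.60 in the siSFPQ libraries, a change of -3.16 (SE 0.13). BICC1, an RNA-binding protein, went from 31.7 and 30.3 to 2.09 and 2.65. The epidermal growth factor receptor EGFR stood at 56.8 and 50.2 FPKM with siCTL and at 3.81 and 6.17 with siSFPQ, a change of -3.21 (SE 0.17, adjusted p = 8.2e-07 by limma). For each of these genes the siCTL and siSFPQ libraries did not overlap, which their choice by the size of the change makes likely. WNT5B, a non-canonical Wnt ligand, fell from 102 and 119 FPKM to 10.1 and 13.3. PTGES3, the HSP90 co-chaperone p23, fell from 244 and 247 to 28.3 and 26.1, and UBE2E3, a ubiquitin-conjugating enzyme, from 57.4 and 58.0 to 6.39 and 6.89. STMN1, which destabilises microtubules, dropped from 362 and 361 to 47.2 and 49.8. The other named falls were PKP4 (a plakophilin of cell junctions), PDE1C (a cyclic nucleotide phosphodiesterase), ADK (adenosine kinase) and TOP2A, with changes between -2.84 and -2.77. CCND1, cyclin D1, also fell, from 496 and 511 FPKM to 157 and 164.

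Cell division genes fell almost as a whole, beside 29.9% of all tested genes that fell. Of 35 tested G1/S and replication genes 31 fell and none rose, 27 of them at least 2-fold in both pairs, and the median change was -1.46. E2F2 passed the level filter through the siCTL libraries alone, so its lower level with siSFPQ follows from the filter. RRM2, the small subunit of ribonucleotide reductase, stood at 172 and 151 FPKM with siCTL and at 33.6 and 20.7 with siSFPQ. POLA1, the catalytic subunit of the priming DNA polymerase, went from 11.6 and 12.1 to 1.77 and 1.90, CDC6, which loads the replicative helicase, from 35.6 and 42.2 to 7.73 and 6.68, and E2F1, the transcription factor of S phase entry, from 16.01 and 15.8 to 3.798 and 4.01. All 34 tested G2/M genes fell, 31 of them at least 2-fold in both pairs, with a median of -1.77. TOP2A, the topoisomerase that untangles chromosomes, fell from 135 and 147 FPKM to 19.02 and 18.7 (a change of -2.84, SE 0.13). The spindle factor TPX2 fell from 92.2 and 97.2 to 16.2 and 15.0, and MKI67, which encodes the proliferation antigen Ki-67, from 62.5 and 65.3 to 11.5 and 13.3. For each of the cell division genes named, both siSFPQ libraries lay below both siCTL libraries, which their choice by the smallest p makes likely.

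Homologous recombination genes moved the same way: 23 of 27 fell, 15 at least 2-fold in both pairs, with a median of -1.22, and none rose. Among all tested genes 29.9% fell. BRCA2, RAD51B and FANCC passed the level filter through the siCTL libraries alone, so their lower level with siSFPQ follows from the filter. BRCA1 went from 10.2 and 10.6 FPKM to 2.30 and 2.07. EXO1, a nuclease that resects DNA ends, fell from 13.2 and 12.4 to 2.47 and 2.23, and the Fanconi anaemia gene FANCI from 28.4 and 30.2 to 6.31 and 7.48. Among the 13 tested cytostatic genes, through which TGF-beta is known to slow the cycle, 2 rose and 6 fell, beside 15% and 29.9% of all tested genes. This list is not separate from the G1/S list: CCND1, CCNE1, CDK4, CDK6 and E2F1 are on both. The inhibitor CDKN1A rose from 282 and 308 FPKM to 476 and 432, while E2F1 and the phosphatase CDC25A (10.1 and 10.6 against 3.17 and 2.83 FPKM) fell. MYC rose from 134 and 122 to 208 and 167 FPKM. The inhibitor CDKN2B was near 0 in all 4 HLE libraries, between 0 and 0.0357 FPKM, against 0.859 to 31.9 in the other lines' siCTL libraries.

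**Figure D2:**
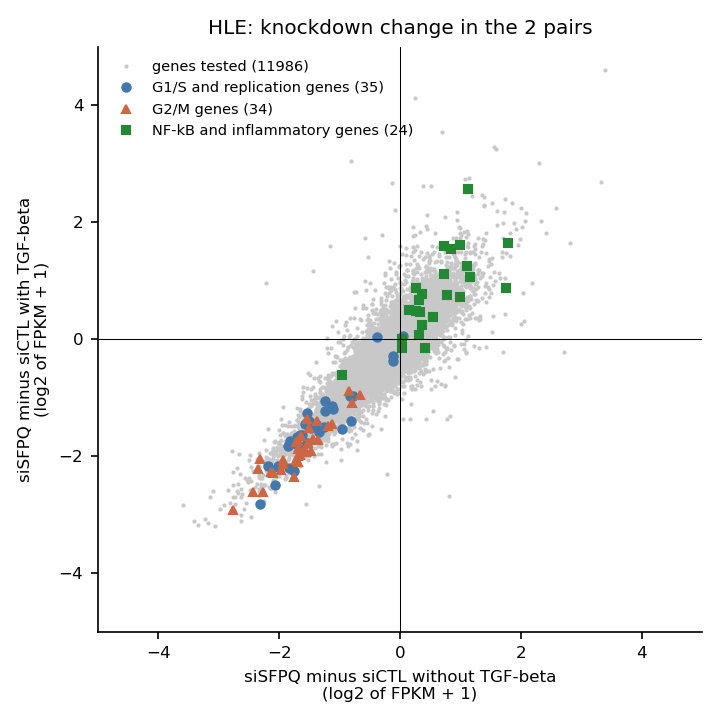
Each point is 1 of 11986 genes, with the knockdown change without TGF-beta on the x axis and with TGF-beta on the y axis, both as differences in log2(FPKM + 1). The 34 G2/M genes (triangles) and most of the 35 G1/S genes (circles) lie in the lower left, and 24 NF-kB and inflammatory genes (squares) lie mostly in the upper right.

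Long genes were lowered more often than short ones. Gene spans from the GENCODE 29 annotation, matched by symbol, were found for 10728 of the 11986 genes. The 312 genes that span over 300 kb had a median knockdown change of -1.03, 77.9% of them fell, 44.6% were at least 2-fold lower in both pairs and 0 were at least 2-fold higher in both. Over all tested genes these shares were 29.9%, 6.99% and 1.14%. The median was -0.30 for spans of 100 to 300 kb, -0.09 for 30 to 100 kb, -0.04 for 10 to 30 kb and 0.02 under 10 kb. It was nearly the same in the pair without TGF-beta (-1.04 over 300 kb) and in the pair with it (-1.02). Among the largest falls ADK spans 558 kb, FAF1 523 kb, BICC1 318 kb and EGFR 193 kb. Within the class over 300 kb, the 57 genes with shorter spliced transcripts had a median of -1.12 and the 255 with longer ones -1.02. Over the 222 such genes measured across lines, the median was -1.07 in HLE, -0.68 in SK-HEP1, -0.37 in Huh7, -0.36 in Hep3b, -0.18 in Huh1 and -0.16 in HepG2.

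**Figure D3:**
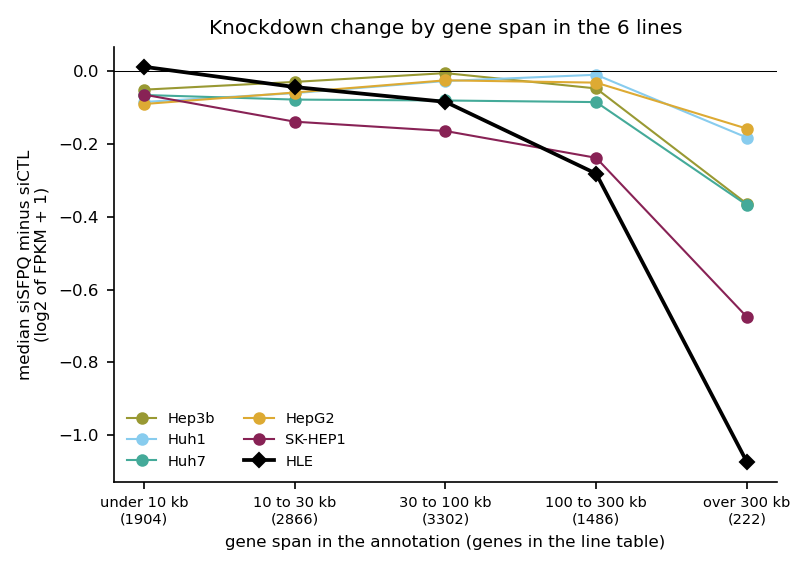
Median knockdown change (difference in log2(FPKM + 1), mean of 2 pairs) by gene span class, 1 line per cell line, with the number of genes under each class. HLE (black diamonds) goes from 0.01 under 10 kb to -1.07 over 300 kb, the lowest of the 6 lines in that class.

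The rises after knockdown included a secreted protease, keratins and inflammatory genes. MMP9, the gelatinase that degrades basement membrane collagen, stood at 9.18 and 15.9 FPKM in the siCTL libraries and at 106 and 409 in the siSFPQ libraries, a change of 3.997 (SE 0.23). KRT34, a hair keratin, went from 16.02 and 18.1 to 171 and 122, KRT81, another hair keratin, from 13.96 and 55.5 to 59.5 and 212, and KRT19, a simple epithelial keratin, from 149 and 134 to 757 and 543. The siCTL and siSFPQ libraries did not overlap in any of the 4, which their choice by the size of the change makes likely, and KRT81 rose with TGF-beta too. RHOB, a small GTPase of endosomes and actin, rose from 19.4 and 89.4 to 99.6 and 727 FPKM, and it also rose with TGF-beta. MKNK2, a kinase of the translation factor eIF4E, rose from 17.6 and 11.9 to 111 and 60.4, and APOE, apolipoprotein E, from 42.8 and 23.2 to 153 and 84.7. The other named rises were OGFR (the opioid growth factor receptor), CEACAM19, DBN1 (the actin-binding drebrin), TBKBP1 (a TBK1-binding adaptor) and ICAM4, with changes from 1.90 to 2.12.

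NF-kB and inflammatory genes rose together, 17 of 24 with 1 fall, 4 of them at least 2-fold in both pairs, and a median of 0.57. Of all tested genes 15% rose and 29.9% fell. LTB stood at 0.159 and 0.301 FPKM with siCTL and at 1.53 and 6.71 with siSFPQ. It passed the level filter through the siSFPQ libraries alone, so its rise follows from the filter. Without the block 5 of the 24 were called higher. The colony-stimulating factor CSF2 went from 5.47 and 18.1 FPKM to 21.3 and 59.2, and the feedback inhibitors NFKBIA and TNFAIP3 from 79.2 and 70.2 to 178 and 148 and from 13.3 and 8.50 to 27.5 and 28.2. The NF-kB family member RELB rose from 23.8 and 24.9 to 40.1 and 55.5. Of 27 tested p53 targets 12 rose and 2 fell: the pro-apoptotic BBC3 went from 13.4 and 12.5 FPKM to 30.9 and 31.5, and RRM2B, a ribonucleotide reductase subunit, fell from 12.8 and 14.7 to 4.35 and 4.82. Epithelial genes had 8 rises and no fall among 12, with a median of 0.60. JUP, the junction plakoglobin, went from 8.38 and 7.52 to 18.9 and 18.3, and KRT8 from 916 and 1058 to 1695 and 1661. Hepatocyte genes were mostly below the level filter, which 10 of 30 passed, 2 of them through the siSFPQ libraries alone, so no count is read from them. SERPINA1, alpha-1-antitrypsin, read 18.05, 24.7, 35.2 and 84.8 FPKM in the 4 libraries in the order above, and APOA1 3.18, 4.19, 3.68 and 11.6, each highest in siSFPQ with TGF-beta.

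Mesenchymal genes did not move in 1 direction with knockdown: 8 of 27 rose and 6 fell, beside 15% and 29.9% of all tested genes. CALD1, caldesmon, fell from 17.6 and 35.0 FPKM to 1.92 and 4.83, and N-cadherin, CDH2, from 11.9 and 17.7 to 2.36 and 7.39. MMP14, the membrane-anchored matrix protease, rose from 63.6 and 99.7 to 120 and 277. VIM, vimentin, stayed high at 4266, 4821, 4586 and 6367 FPKM, with a knockdown change of 0.25 (SE 0.24, adjusted p = 0.42 by limma). Cholesterol synthesis genes had 1 rise and 10 falls among 25, beside the 29.9% of all tested genes called lower.

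**Figure D4:**
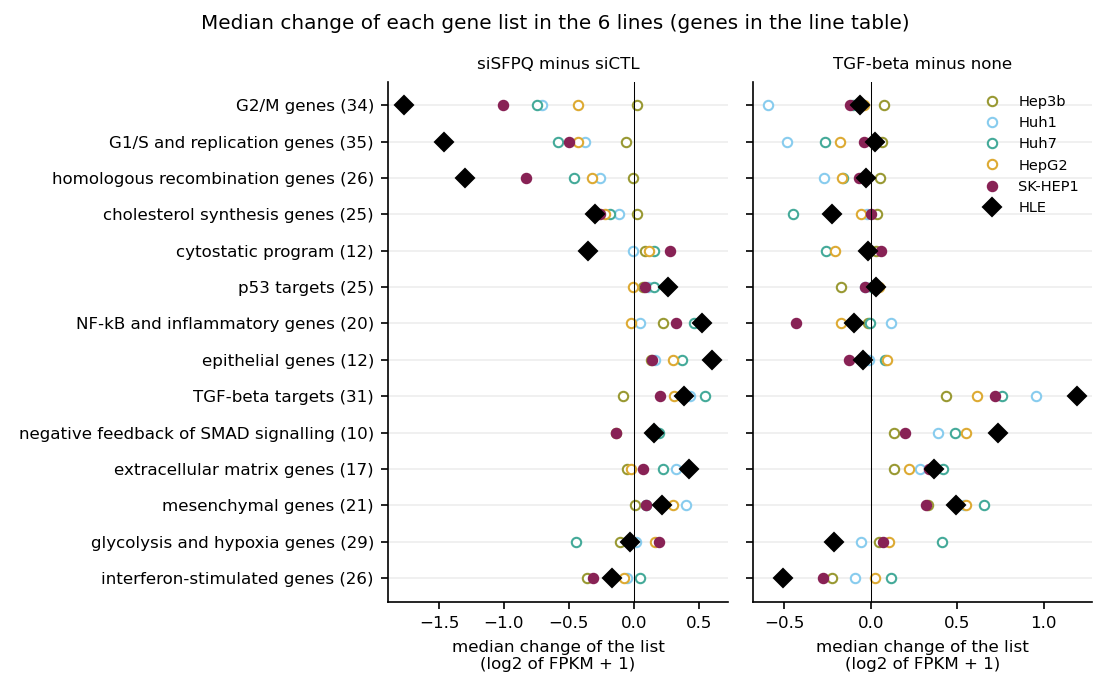
Median change of 14 gene lists in each of the 6 lines, knockdown on the left and TGF-beta on the right, as differences in log2(FPKM + 1), over the listed genes measured across lines (number in brackets). HLE (black diamonds) lies lowest of the 6 lines for G2/M (-1.77), G1/S (-1.46) and homologous recombination genes (-1.30) after knockdown and highest for TGF-beta targets (1.19) with TGF-beta.

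Set against the other 5 lines, HLE and SK-HEP1 had the widest knockdown changes. The SD of the change over the 10879 genes measured across lines was 0.613 in HLE, 0.623 in SK-HEP1 and 0.277 to 0.411 in the others. HLE had 111 genes at least 2-fold higher and 750 at least 2-fold lower in both pairs, SK-HEP1 185 and 837, and the other 4 lines 17 to 52 and 21 to 157. The 2 lines are also those with the least SFPQ left, a difference whose part in the size of the changes was not tested. Both HLE pairs lay above all 10 pairs of the other lines in 607 genes (5.58%) and below all of them in 1156 (10.6%). The same counts ran from 438 (Huh1) to 677 (Hep3b) above and from 235 (Huh1) to 1787 (SK-HEP1) below, with SK-HEP1 at 672 above. Both HLE counts thus lay within the range of the other lines. The G1/S list had 28 of 35 genes below all other pairs and the G2/M list 29 of 34. Their medians in the other lines ran from -0.59 to -0.06 and from -1.005 to 0.02, with SK-HEP1 the lowest for G2/M.

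With each line as 1 value, no gene's knockdown change was called different between HLE and the other 5 (0 of 10879, 0%, by limma at an adjusted p under 0.05). At an unadjusted p under 0.05 there were 1044, of which 263 were higher in HLE and 781 lower, and the smallest adjusted p was 0.083. Leaving out Hep3b, Huh1, Huh7 or HepG2 gave 0 calls each by limma (800 to 987 at an unadjusted p under 0.05). Without SK-HEP1, 413 genes were called, 45 higher and 368 lower in HLE. SK-HEP1 is also the line whose SFPQ loss came closest to that of HLE, and any part of that in this count was not tested. The genes with the smallest p are given as values. RASAL2, a Ras GTPase-activating protein, read 7.96, 7.66, 1.05 and 0.880 FPKM in HLE, a change of -2.17 against -0.48 to -0.06 in the other lines. CRIM1, a membrane antagonist of BMPs, read 146, 111, 56.1 and 36.4 (a change of -1.47 against -0.16 to 0.13), and HMGB2, a chromatin protein of dividing cells, 156, 143, 42.8 and 28.5 (-2.07 against -0.47 to 0.03). PARD3, a polarity scaffold, read 24.3, 27.4, 5.57 and 5.03 (-2.09 against -0.41 to 0.33), UBE2E3 changed by -2.94 against -1.04 to -0.15, and CCNE2, cyclin E2, by -2.10 against -0.61 to -0.15. On the other side KDM6B, a demethylase of histone H3 lysine marks, read 6.19, 4.75, 20.2 and 54.9 FPKM, a change of 2.42 against 0.18 to 1.11. TMEM88, an inhibitor of Wnt signalling, changed by 1.91 against -0.03 to 0.46, FAM83H by 1.42 against -0.06 to 0.38, the RNA exonuclease ISG20 by 1.03 against -0.47 to 0.02, the reductase DHRS7 by 1.00 against -0.06 to 0.22 and transferrin, TF, by 0.88 against -0.50 to 0.05.

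TGF-beta moved fewer genes than knockdown did. With the siRNA as a block, 383 genes (3.2% of 11986) rose and 465 (3.88%) fell at an adjusted p under 0.05 by limma, and 67 (0.559%) were at least 2-fold higher and 44 (0.367%) at least 2-fold lower in both pairs. The median change was -0.06. These counts are fragile: without the block for the siRNA, whose effect then enters the residual, 0 genes were called (356 at an unadjusted p under 0.05), with no filter on low values 48, and with short RNA rows kept 71. Median-ratio scaling gave 357 rises and 258 falls. The 2 pairs agreed in sign for 65.2% of genes, and the siSFPQ pair alone held 260 genes at least 2-fold higher and 200 at least 2-fold lower, against 82 and 55 in the siCTL pair alone. The siSFPQ library with TGF-beta is also the shallowest of the 4, and the part of depth in that difference was not tested.

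The machinery that reads the ligand was present throughout. TGFBR1 read 5.45, 4.01, 10.7 and 9.93 FPKM in siCTL, siCTL with TGF-beta, siSFPQ and siSFPQ with TGF-beta, and TGFBR2, the ligand-binding receptor, 28.6, 27.8, 40.6 and 58.2. Both were higher with siSFPQ in each TGF-beta state, by 0.99 (SE 0.14) and 0.76 (SE 0.15), and both rises passed the knockdown test. SMAD2 lay between 5.48 and 8.86 FPKM, SMAD3 between 44.6 and 55.2, and SMAD4, the shared partner, at 5.56, 6.45, 5.43 and 6.53. None of these 3 passed either test. Of the 17 tested receptors and SMADs 1 was called with TGF-beta, the BMP receptor BMPR2, which rose from 6.21 to 11.1 FPKM with siCTL and from 0.650 to 2.15 with siSFPQ, and which knockdown lowered. Among all tested genes 3.2% rose with TGF-beta.

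The classical targets rose. Of 32 tested TGF-beta target genes 20 rose and none fell, 10 of them at least 2-fold in both pairs, with a median change of 1.13. Among all tested genes 3.2% rose and 3.88% fell. DACT1 passed the level filter through the TGF-beta libraries alone, so its higher level there follows from the filter. With no filter 8 of the targets were called higher and with short RNA rows kept 7. COL7A1, the anchoring fibril collagen, stood at 0.966 FPKM in siCTL and 1.61 in siSFPQ, and at 19.5 and 31.1 with TGF-beta, a change of 3.50 (SE 0.13, adjusted p = 1e-06 by limma). PMEPA1, a membrane protein that sequesters receptor SMADs, went from 1.06 to 19.4 with siCTL and from 0.236 to 34.7 with siSFPQ. ANGPTL4, a secreted inhibitor of lipoprotein lipase, went from 11.5 to 106 and from 18.03 to 322. In all 3 genes each treated library lay above both untreated ones, which is likely in genes picked for a large rise. The matrix protease ADAM19 rose from 15.2 to 83.1 FPKM with siCTL and from 52.7 to 442 with siSFPQ, and LTBP2, a latent TGF-beta binding protein, from 2.07 to 15.5 and from 1.75 to 29.5. PLEK2, a pleckstrin of the membrane cytoskeleton, rose from 5.46 to 32.0 and from 6.82 to 99.03.

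The negative feedback genes rose in 7 of 10 cases, with a median of 0.74 and no fall. Among all tested genes 3.2% rose and 3.88% fell. This list is not separate from the TGF-beta targets: PMEPA1, SKIL, SKI and KLF10 are on both. SMAD7, which blocks the receptor, went from 2.84 to 17.2 FPKM with siCTL and from 1.91 to 18.97 with siSFPQ, a change of 2.51 (SE 0.15). SKIL, a repressor that binds SMADs, went from 2.45 to 14.2 and from 2.33 to 23.7. The ubiquitin ligases SMURF1 and SMURF2 rose by 0.87 (SE 0.16) and 0.76 (SE 0.15). Of 7 BMP and ID targets 2 rose and 3 fell: ID1, an inhibitor of bHLH factors, went from 25.8 to 16.3 and from 35.3 to 20.9 FPKM, and ID2 from 37.9 to 24.9 and from 27.3 to 8.28.

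Promoters of 4 of the 12 named rises are shown, chosen by hand: the first 2 in rank, the receptor inhibitor SMAD7, and EFNA1, whose TGF-beta change was called different from that of the other lines. They are of interest because receptor-activated SMADs bind a short box, CAGAC, or GTCTG on the other strand, and the capitals mark each such box. Each is the 250 bases before the gene start in RefSeq on the gene's own strand, in build GRCh38.p14: COL7A1 at chr3:48595330-48595579 (minus strand), PMEPA1 at chr20:57711473-57711722 (minus strand), SMAD7 at chr18:48950966-48951215 (minus strand) and EFNA1 at chr1:155127626-155127875 (plus strand).
COL7A1: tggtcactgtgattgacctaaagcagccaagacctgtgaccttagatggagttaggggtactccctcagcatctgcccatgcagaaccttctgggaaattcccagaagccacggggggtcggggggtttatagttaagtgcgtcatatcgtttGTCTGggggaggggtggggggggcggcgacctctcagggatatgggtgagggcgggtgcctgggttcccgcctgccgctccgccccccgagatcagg
PMEPA1: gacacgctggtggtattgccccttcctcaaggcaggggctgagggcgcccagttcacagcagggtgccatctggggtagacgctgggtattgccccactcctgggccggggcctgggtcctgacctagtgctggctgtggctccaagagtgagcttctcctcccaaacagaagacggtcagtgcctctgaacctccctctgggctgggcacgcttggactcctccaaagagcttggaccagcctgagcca
SMAD7: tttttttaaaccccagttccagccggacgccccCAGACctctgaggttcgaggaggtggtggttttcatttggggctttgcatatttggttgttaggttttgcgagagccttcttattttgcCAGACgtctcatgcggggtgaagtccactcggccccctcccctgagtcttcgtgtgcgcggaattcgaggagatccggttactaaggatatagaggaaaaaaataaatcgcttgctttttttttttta
EFNA1: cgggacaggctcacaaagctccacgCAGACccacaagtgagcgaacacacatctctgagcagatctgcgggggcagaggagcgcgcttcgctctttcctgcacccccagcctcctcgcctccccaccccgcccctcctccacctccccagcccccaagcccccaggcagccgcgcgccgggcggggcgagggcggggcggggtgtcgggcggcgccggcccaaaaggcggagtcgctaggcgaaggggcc

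SMAD7 held 2 boxes in this window, COL7A1 and EFNA1 1 each and PMEPA1 0. Over all 12 named rises 6 held a box and 6 (PMEPA1, COL5A1, LTBP2, ADAM19, TGFBI and RHOB) none. Of the 67 genes at least 2-fold higher with TGF-beta in both pairs, 44 matched a promoter by symbol, and over 250 bases before to 50 after the start 26 of these (59.1%) held CAGAC on either strand. The share was 15 of 27 (55.6%) among the 2-fold lower genes and 3615 of 8536 (42.4%) among all tested genes with a promoter. The longer palindrome GTCTAGAC, which contains the letters GTCT but not the full CAGAC box, was in 0 of the 44, 0 of the 27 and 0.141% of all. The AP-1 motif, TGAGTCA or TGACTCA, was in 4.55%, 14.8% and 3% of the same sets. A match is a run of letters, not a bound site.

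Matrix and mesenchymal genes rose with TGF-beta too. Of 25 extracellular matrix genes 10 rose and 2 fell, and of 27 mesenchymal genes 10 rose and 2 fell, beside 3.2% and 3.88% of all tested genes. FBN1 and VCAN of the matrix list passed the level filter through the TGF-beta libraries alone, so their higher level there follows from the filter. COL7A1 and COL4A1 of the matrix list and SNAI2 of the mesenchymal list are also on the TGF-beta target list. COL5A1, a fibrillar collagen chain, went from 4.06 to 32.2 FPKM with siCTL and from 2.57 to 27.7 with siSFPQ. COL6A3, a chain of the beaded-filament collagen, went from 1.68 to 12.6 and from 1.43 to 13.01, and COL1A1, the main fibrillar collagen, from 2.70 to 14.6 and from 5.30 to 40.5. The untreated and treated libraries did not overlap in any of the 3, which is likely for COL5A1 and COL6A3, picked for a large rise. Fibronectin, FN1, rose from 186 to 484 and from 216 to 1836 FPKM, TAGLN, an actin-binding protein of smooth muscle, from 24.1 to 65.9 and from 29.005 to 74.5, and tropomyosin TPM1 from 811 to 1797 and from 875 to 1922. The collagen crosslinker LOX fell, from 77.9 to 34.6 and from 96.6 to 43.3, as did tenascin, TNC, from 6.30 to 2.82 and from 7.01 to 2.22. CDH2 rose from 11.9 to 17.7 and from 2.36 to 7.39. VIM missed the threshold with a change of 0.33 (SE 0.24, adjusted p = 0.54 by limma).

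The falls with TGF-beta included interferon-stimulated and inflammatory genes. Of 28 interferon-stimulated genes 16 fell and none rose, 4 at least 2-fold in both pairs, with a median of -0.51. Among all tested genes 3.2% rose and 3.88% fell. IFIT1, which binds foreign RNA caps, went from 18.9 to 5.29 FPKM with siCTL and from 14.6 to 2.51 with siSFPQ, a change of -1.91 (SE 0.15). IFIT2 went from 12.1 to 3.53 and from 8.82 to 2.42, IFIT3 from 33.2 to 13.02 and from 27.0 to 10.4, and OAS1, a sensor of double-stranded RNA, from 12.3 to 5.14 and from 10.2 to 3.05. In these 4 genes each treated library lay below both untreated ones, which is likely in genes picked for their fall. Under median-ratio scaling 9 of the 28 were called lower and with no filter 3. Of 24 NF-kB and inflammatory genes 2 rose and 6 fell, and the chemokine CXCL2 went from 46.2 to 22.8 and from 59.7 to 27.4.

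The 12 largest falls also held IFIT1 and IFIT2, given above, and 10 other genes. IL24, a cytokine of the IL-10 family, went from 7.42 to 1.45 FPKM with siCTL and from 34.1 to 2.02 with siSFPQ. SERPINB2, plasminogen activator inhibitor 2, went from 28.8 to 8.07 and from 54.2 to 7.51, and the pentraxin PTX3 from 40.3 to 12.5 and from 169 to 22.3. EREG, the EGFR ligand epiregulin, went from 21.6 to 7.51 and from 35.1 to 4.01. These 4 genes lost more with siSFPQ, from a higher untreated level. HLA-DRA, an antigen-presenting chain, fell from 25.5 to 7.98 and from 12.5 to 2.49, and the decoy receptor TNFRSF6B from 315 to 121 and from 606 to 200. EVI2A and EVI2B, neighbouring membrane protein genes that lie in an intron of NF1 and may share reads with it, changed by -1.41 and -1.998, AVPI1 by -1.54 and SBSN by -1.39. Of 30 glycolysis and hypoxia genes 3 rose and 6 fell, beside 3.2% and 3.88% of all tested genes. Hexokinase HK2 went from 46.8 to 21.7 and from 28.8 to 11.3 FPKM and the glucose transporter SLC2A3 from 10.8 to 4.59 and from 30.1 to 9.50, while PFKFB3, which makes an activator of glycolysis, rose from 34.7 to 72.5 and from 40.7 to 97.1.

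Few growth genes passed the TGF-beta test in HLE. No G2/M gene of 34 and 1 G1/S gene of 35 (a rise) was called with TGF-beta, with medians of -0.06 and 0.02, near the median of all genes. Among all tested genes 3.2% rose and 3.88% fell. MYC missed the threshold at 134 and 122 FPKM with siCTL and 208 and 167 with siSFPQ (adjusted p = 0.45 by limma), and CDKN1A at 282 and 308 with siCTL and 476 and 432 with siSFPQ (adjusted p = 0.99). GADD45B, a stress and cytostatic target, rose from 30.5 to 51.4 and from 20.2 to 38.6.

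Both HLE TGF-beta pairs lay above all 10 pairs of the other lines in 393 genes (3.61%) and below all of them in 527 (4.84%). The same counts ran from 197 (Huh1) to 663 (Huh7) above and from 159 (Hep3b) to 553 (Huh7) below, so both HLE counts lay within the range of the other lines. In the interferon list 9 of 26 genes measured across lines were below all other pairs, and in the glycolysis and hypoxia list 14 of 29. The medians of those lists were -0.51 and -0.22 in HLE, against -0.28 to 0.11 and -0.05 to 0.41 in the other lines. With each line as 1 value, 3 of 10879 genes (0.0276%) were called different in HLE by limma. EFNA1, a membrane ligand of Eph receptors, read 3.08, 17.6, 6.05 and 42.7 FPKM, a rise of 2.41 against 0.08 to 0.45 in the others (difference 2.11, SE 0.15, adjusted p = 0.016). LPCAT2, an enzyme that remodels phospholipids, read 2.66, 10.4, 2.24 and 19.8 (2.16 against 0.25 to 0.60), and GM2A, a lysosomal activator of ganglioside breakdown, 62.2, 25.1, 111 and 24.4 (-1.71 against -0.28 to -0.04). When Huh1, HepG2 or SK-HEP1 was left out 0 genes were called by limma (734, 755 and 885 at an unadjusted p under 0.05). Among genes that were not called, SMAD7 changed by 2.51 against 0.41 to 0.93, PLEK2 by 3.01 against 0.52 to 1.12 and GBF1, a Golgi exchange factor, by 0.84 against -0.09 to 0.06. On the falling side IFIT1 changed by -1.91 against -0.30 to 0.16, TNFRSF6B by -1.48 against -0.01 to 0.53, the vasodilator peptide ADM by -1.21 against -0.01 to 0.34, the phosphatase PTPN1 by -0.91 against -0.19 to -0.08 and PPAP2B, a lipid phosphatase, by -1.87 against -0.41 to 0.07.

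The TGF-beta response was larger with siSFPQ for most responsive genes of HLE, as a description with 1 value per gene. Of the 383 genes that rose with TGF-beta 336 rose more with siSFPQ, and of the 465 that fell 382 fell more. These genes were called on the mean of the 2 pairs, and the siSFPQ pair had the wider changes. The 2 counts therefore follow in part from how the genes were chosen and are no separate result. The siSFPQ library with TGF-beta is also the shallowest, and the part of depth was not tested. Over all 11986 genes the TGF-beta change was the higher one with siSFPQ in 5080 and the lower one in 6906. Of all genes 102 had a TGF-beta change at least 1 log2 unit larger with siSFPQ and 65 at least 1 smaller. Of 32 TGF-beta targets 30 had the higher change with siSFPQ, with a median of 1.57 there and 0.53 with siCTL. The size of that difference varied between genes. COL7A1 changed by 3.38 with siCTL and 3.62 with siSFPQ, COL5A1 by 2.71 and 3.01 and SMAD7 by 2.25 and 2.78, while TGFBI changed by 2.29 and 5.09.

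**Figure D5:**
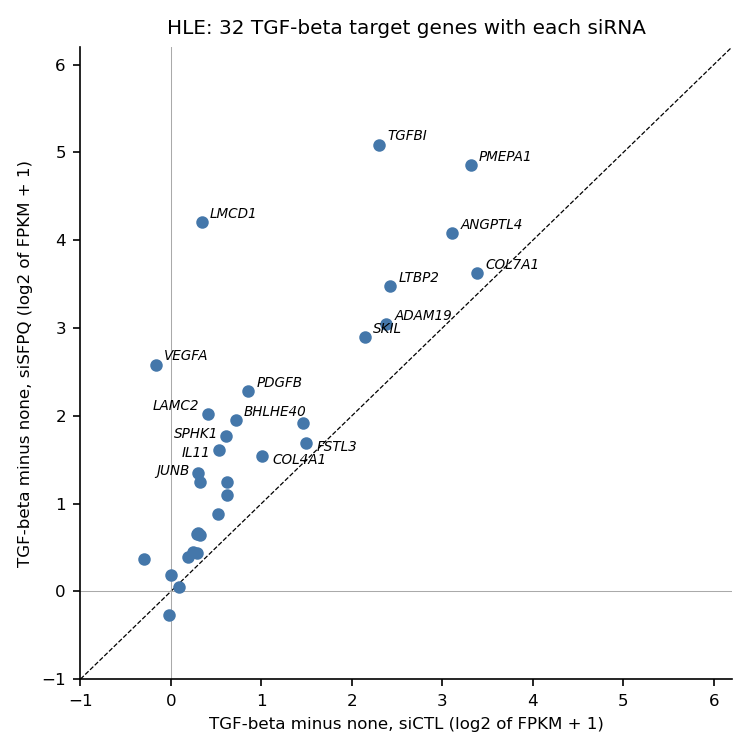
TGF-beta change of the 32 tested target genes in HLE with siCTL (x axis) and with siSFPQ (y axis), both as differences in log2(FPKM + 1), with the dashed line where they are equal. Most genes lie above the line, with LMCD1 (0.34 and 4.21), VEGFA (-0.17 and 2.58) and TGFBI (2.29 and 5.09) farthest from it.

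Against the other lines, the extra TGF-beta response under siSFPQ was called different in HLE for 9 of 10879 genes (0.0827%), 6 higher and 3 lower, by limma. TGFBI, a secreted matrix protein, read 2.23, 14.8, 1.96 and 99.8 FPKM, an extra response of 2.79 against -0.16 to 0.90 in the other lines. VEGFA, the vascular growth factor, read 12.7, 11.2, 5.17 and 36.0, an extra response of 2.75 against 0.18 to 0.47 (difference 2.44, SE 0.17, adjusted p = 0.00053). The siSFPQ library with TGF-beta was thus the highest of the 4 for both, and for VEGFA the untreated siSFPQ library was the lowest. SNAI1, the EMT transcription factor, read 0.205, 0.644, 0.305 and 19.6 FPKM, with an extra response of 3.53 against -0.69 to 0.86. LMCD1, a LIM domain repressor of GATA6, read 1.14, 1.71, 0.214 and 21.4 (3.87 against 0.06 to 1.10), FOS, a subunit of AP-1, 0.367, 0.792, 0.836 and 9.91 (2.18 against -0.53 to 0.24), and C1orf106 0.507, 2.25, 0.432 and 14.02 (2.28 against 0.37 to 0.59). All 4 were under 3 FPKM in the other 3 HLE libraries, so this result rests on 1 library. SNAI1 and FOS were under 1 FPKM in those 3. They passed the level filter, a mean of at least 1 FPKM in HLE, only through the library that makes the difference, so their calls are given as values only. SLC27A2, a fatty acid transporter of hepatocytes, read 8.08, 5.48, 12.3 and 1.79, an extra response of -1.77 against -0.43 to 0.15. The read-through row URGCP-MRPS24 (1.64, 5.44, 3.64 and 0 FPKM) and the uncharacterised row LOC100289092 were also called and are uncertain, since their reads can be split with overlapping genes. Without Hep3b or HepG2 5 genes were called and without Huh1 4. HSD17B8, CTNNAL1 and SLCO4A1 came next and were not called, with extra responses of -1.33, -1.07 and -1.38.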

How the data were processed

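Polyadenylated RNA of 6 liver cancer lines in 4 conditions was sequenced, 1 library each. The deposited table holds FPKM, although it is named for counts; per the submitters' processing notes the authors used TopHat2 2.1.1 and Cufflinks 2.2.1 on hg19. Values under 1e-06 were set to 0, 1627 short RNA rows were left out (MIR4461 alone took 41.4% to 44.5% of the FPKM of an HLE library), and 2 further columns of the table were not used. Log2(FPKM + 1) values were tested with limma 3.58.1 in R 4.3.3 (empirical Bayes with trend, Benjamini-Hochberg over all genes tested). HLE was fitted alone, with siRNA and TGF-beta as terms, 1 residual and 9.37 prior degrees of freedom. Against the other lines each line gave 1 value, over genes with a mean of at least 1 FPKM in HLE and in 3 of the other 5 lines, so HLE is assumed to vary like them. No library had the same values as another. Read totals are unknown, so relative depth was read from the steps of low values. The fits were also run on simulated data, from which no result is drawn. There the HLE values carried independent noise and no extra TGF-beta response under siSFPQ, so that run cannot judge the calls made here.

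Named genes were SFPQ, the 12 largest rises and falls by the smaller pair change among called genes with a mean log2 value of at least 2, the 6 most different genes each way between HLE and the other lines, a few members per list with the smallest p, and fixed pathway genes. A few genes that this rule names are not reported here. The members and lists were chosen with earlier results of these data known. Genes picked for their change tend to have libraries that do not overlap, and the share of all genes with this was not counted. Gene spans came from GENCODE 29 on another build (GRCh38), matched by symbol. Alternatives covered the pseudocount, filter, scaling, short RNA rows, shrinkage, block, a fit over 24 libraries and libraries or lines left out.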

Additional observations from a re-analysis of the deposited data

Results flagged for a closer look

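In HLE 1 list summary stood apart from the other 5 lines: the median extra TGF-beta response under siSFPQ of the negative feedback genes was 0.45. Lists in which another line stood apart were the BMP and ID targets (Hep3b, 0.26), the cytostatic genes (HepG2, -0.24) and the glycolysis and hypoxia genes (Hep3b, 0.26) for the same measure, and the G2/M genes (Huh1, -0.59) and p53 targets (Hep3b, -0.17) for the TGF-beta change. In all, 6 of 81 sets of 6 line values held such a value, and chance gives about 1 in 20.

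Differences between HLE and the mean of the other 5 lines that passed the limma test were, for the TGF-beta change, EFNA1 (2.11), LPCAT2 (1.79) and GM2A (-1.56). For the extra TGF-beta response under siSFPQ they were SNAI1 (3.40), LMCD1 (3.13), TGFBI (2.58), VEGFA (2.44), FOS (2.28), C1orf106 (1.82), SLC27A2 (-1.69), LOC100289092 (-2.18) and URGCP-MRPS24 (-3.58). Of these, SNAI1, LMCD1, FOS and C1orf106 rest on a single library, siSFPQ with TGF-beta, and SNAI1 and FOS passed the level filter only through it.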

How the results depend on the processing

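Without the replicate block (no pairing by the other factor) 2938 genes were called for knockdown and 0 for TGF-beta. A pseudocount of 0.1 gave 233 genes 2-fold higher with knockdown, 108 higher and 89 lower with TGF-beta, and 5 TGF-beta calls between lines. With no filter there were 48 TGF-beta calls in HLE, and 181 (knockdown), 154 (TGF-beta) and 38 (extra response) between lines. Short RNA rows kept gave 71 TGF-beta calls, 70 genes 2-fold lower, and 1 and 3 calls between lines for knockdown and the extra response; a minimum of 5 FPKM gave 4 for the latter. Single pairs gave 246 and 363 genes 2-fold higher with knockdown, and the siSFPQ pair 260 higher and 200 lower with TGF-beta. The fit over 24 libraries called 1913 for TGF-beta in HLE, 3733 for knockdown and 755 for TGF-beta between lines. Leaving out 1 HLE library from that fit gave 400 to 1667 TGF-beta calls (400 and 401 without a siSFPQ library, 1667 and 1666 without a siCTL one), and leaving out 1 line gave 0 to 413 (knockdown, 413 without SK-HEP1), 0 to 6 (TGF-beta, 6 without Huh7) and 4 to 8 calls (extra response; 5, 4 and 5 without Hep3b, Huh1 and HepG2). Other settings kept knockdown calls in HLE between 4135 and 7065. List medians near 0 changed sign: oncofetal genes to -0.21 (knockdown, minimum 5 FPKM) and 0.0086 (TGF-beta, no filter), with -0.16 to 0.13 for TGF-beta when 1 HLE library was left out, and stress genes to 0.0033 (knockdown, median-ratio scaling), with -0.18 to 0.035 when 1 HLE library was left out. Causes of these shifts were not tested. Of 1399 repeats of single genes 1207 kept their side of the threshold and direction, 123 lost the call and 69 gained it. Read totals are unknown, and the siSFPQ library with TGF-beta, the shallowest, limits the low genes.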

Other observations

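PSPC1 is the single gene of the table, short RNA rows aside, that stayed under 0.5 FPKM in all 4 HLE libraries and was at 10 FPKM or more in all 20 libraries of the other lines. It read 0.123 to 0.346 FPKM in HLE and 26.5 to 113 elsewhere, with a median of 50.7. The reverse pattern was held by 5 genes, chosen by this rule after their values were seen. SFRP1, a secreted Wnt antagonist, read 43.9 to 144 FPKM in HLE and at most 0.169 in the other lines. CHRDL1, a secreted BMP antagonist, read 37.9 to 61.4 against at most 0.220, and BNC1, a zinc finger protein of basal epithelia, 19.2 to 24.6 against at most 0.159. RNF212 read 14.2 to 17.1 against at most 0.113. HLA-DRB1, which shares sequence with related HLA genes and is therefore uncertain, read 12.5 to 30.02 against at most 0.293.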
